A study of Mus musculus with 6 samples.

Results

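Messenger RNA of 10 genes of leukocyte adhesion was followed in cultured mouse microglia, the resident macrophages of the brain, with and without extracellular vesicles (EVs) of neural stem cells. The genes are the integrin alpha subunit genes Itgam, Itgal, Itgav, Itga4, Itga5 and Itga6, the beta subunit genes Itgb1, Itgb2 and Itgb3, and Icam1, which encodes a ligand of the beta2 integrins. The set was chosen with earlier results of these data known. Its members were taken by symbol from a count table of 48005 gene entries, and all 10 were found. Of these, 9 are entries of a single gene. The entry of Itgam joins it with the gene models Gm49368 and Gm45700, whose exons overlap it, but bins outside the exons of Itgam held only 0.508% to 0.611% of its counts.

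Cultured microglia of CD1 mice that were given EVs gave 3 libraries, named EV-treated A, B and C, and microglia given the control treatment gave 3 libraries, named control A, B and C. The EVs, membrane particles that cells release, were collected by serial centrifugation from cultures of primary neural stem cells of the subventricular zone of CD1 mice. The labels give neither the dose nor the duration of the treatment, nor the content of the control, nor whether each library had a culture of its own. P-values therefore reflect only how much the 6 samples vary, and that variation may be technical.

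Integrins are receptors of an alpha and a beta chain that tie cells to each other and to the matrix. Their ectodomain is inactive when bent and binds once talin and kindlin engage the beta tail from inside the cell. In microglia, Itgam and Itgb2 encode the complement receptor CR3, also called Mac-1, known for uptake of complement-tagged material and synapses. Itgal and Itgb2 encode LFA-1, which binds ICAM-1. Itgb1 is the shared partner of Itga4, Itga5, Itga6 and Itgav, in receptors for VCAM-1, fibronectin and laminin. Itgav with Itgb3 forms a vitronectin receptor, which also takes part in the uptake of dying cells.

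Counts summed over all exon bins came to 109744701 to 162544804 per library. Summed levels of 10 microglia markers were 2355 to 2603 CPM (counts scaled to equal TMM library sizes) in EV-treated libraries and 3630 to 4981 CPM in control libraries, and Siglech was the marker under 1 CPM in all 6. Markers of neurons (6), neutrophils (6) and B cells (5) were each under 1 CPM in all libraries. Astrocyte markers summed to 94.9 to 131 CPM in EV-treated and 14.9 to 20.4 CPM in control libraries, where Gfap, Aqp4, Slc1a3 and S100b of the 8 were under 1 CPM throughout. Most of the EV-treated sums was Slc1a2 (55.7 to 90.6 CPM, against 0.0315 to 0.186 CPM in control libraries) and Gja1 (25.9 to 31.3 CPM, against 0.0531 to 0.127 CPM). Aldh1l1, most of the control sums, went the other way, at 1.04 to 2.29 CPM in EV-treated and 10.6 to 15.3 CPM in control libraries. Markers of the oligodendrocyte lineage summed to 48.9 to 58.3 CPM in EV-treated and 244 to 468 CPM in control libraries, where most of it was Cspg4 (18.5 to 30.0 CPM in EV-treated and 176 to 399 CPM in control libraries), and those of fibroblasts and pericytes to 13.8 to 20.2 CPM in EV-treated and 15.03 to 41.2 CPM in control libraries. Blood monocyte markers summed to 1.21 to 2.49 CPM in EV-treated and 0.622 to 0.928 CPM in control libraries, with 4 of the 5 under 1 CPM in all libraries. Most of the EV-treated sums was F13a1 (0.923 to 2.07 CPM, against 0.173 to 0.366 CPM in control libraries). Ccr2 went the other way, at 0.0547 to 0.283 CPM in EV-treated and 0.425 to 0.562 CPM in control libraries. The log2 ratio of Y-linked to Xist counts was -5.51 to -4.86 in EV-treated libraries and -3.86 to -1.35 in control libraries, so the sex-linked make-up of the samples moved with the treatment. The letters of the libraries were not taken to pair samples.

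Of the 10 genes, 5 rose and 2 fell under EVs, and 3 did not pass the test (edgeR's quasi-likelihood test, adjusted p under 0.05 over 16605 entries). Itgal, Itgav, Itgb3, Itgb1 and Icam1 rose, and Itga6 and Itgb2 fell. Changes were widespread in the whole table, where 66.5% of the entries passed, 33.0% as rises and 33.5% as falls, so 7 of 10 is a share near the background. In 7 of the 10 genes the EV-treated and control libraries did not overlap, against 71.3% of all entries. The median log2 fold change of the 10 genes was 0.48 (0.11 with library totals alone), and that of all entries was -0.02.

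**Figure D1:**
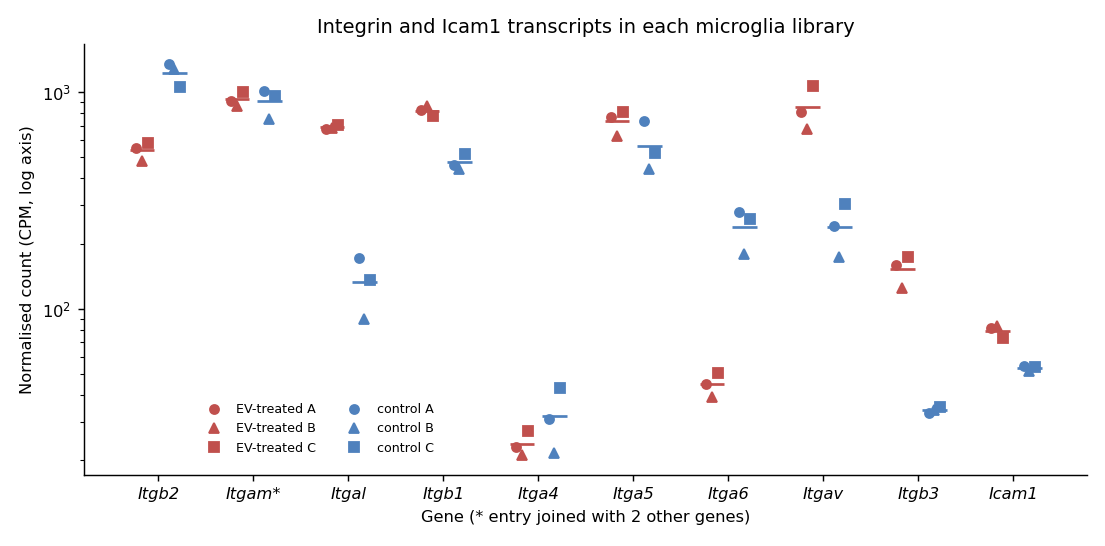
Normalised count (CPM, logarithmic axis) of the 10 genes in each library, with EV-treated libraries (red) to the left of control libraries (blue). Horizontal bars are group means (n = 3 each) and marker shapes give the replicate letter. Itgal, Itgav, Itgb3, Itgb1 and Icam1 are higher and Itga6 and Itgb2 lower in every EV-treated library than in any control library, while Itgam, Itga4 and Itga5 overlap.

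The beta2 integrins changed chain by chain. Itgb2 (ENSMUSG00000000290, GRCm38 chromosome 10, 77530252 to 77565708, plus strand), the common beta chain of leukocyte integrins, had 554, 482 and 581 CPM in EV-treated A, B and C, against 1358, 1277 and 1053 CPM in control A, B and C. All EV-treated libraries were below all control libraries. The means were 539 ± 51.3 CPM in EV-treated and 1229 ± 158 CPM in control libraries (SD, n = 3 each), and Itgb2 fell by 1.19 on the log2 scale (SE 0.14, edgeR adjusted p = 4.52e-05).

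Itgal (ENSMUSG00000030830, chromosome 7, 127296260 to 127335138, plus strand), which encodes CD11a, the alpha chain of LFA-1, went the opposite way. It had 676, 684 and 704 CPM in EV-treated A, B and C, against 172, 90.1 and 136 CPM in control A, B and C. The EV-treated libraries lay close together and far above the controls. The means were 688 ± 14.5 CPM in EV-treated and 133 ± 41.2 CPM in control libraries (SD, n = 3 each), a 5.18-fold rise (log2 fold change 2.37, SE 0.21, edgeR adjusted p = 6.84e-06). T and NK cells also carry LFA-1, and 7 of their markers summed to 2.58 to 3.50 CPM in EV-treated and 1.30 to 2.13 CPM in control libraries, with 6 of the 7, among them Cd3e, Cd3d and Cd3g, under 1 CPM in all libraries.

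Itgam (ENSMUSG00000030786 in the joined entry, chromosome 7, 128062640 to 128128160, plus strand), which encodes CD11b, the alpha chain of CR3 and a common marker of microglia, did not pass the test. Its entry had 910, 866 and 1006 CPM in EV-treated A, B and C, against 1016, 750 and 963 CPM in control A, B and C, and the groups overlapped. The log2 fold change was 0.03 (SE 0.14, edgeR adjusted p = 0.874). Its sign is not fixed, since it was -0.33 with library totals alone as the scaling, -0.044 without EV-treated C and -0.12 without control B. Itgam and Itgal lie on the same stretch of chromosome 7, both on the plus strand. In bulk samples such as these, fewer cells of a type and less RNA per cell cannot be told apart.

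Ratios within a library do not depend on how libraries are scaled, and 10 pairs of genes were compared in this way. Each was compared by an exact 2-sided permutation test, whose smallest possible p with 3 against 3 libraries is 0.1. No ratio could therefore pass 0.05, and the values are given as sizes. The lowest permutation p after Benjamini-Hochberg adjustment over the 10 pairs was 0.125. Per kilobase of exon, Itgam stood to Itgb2 at 0.825 in EV-treated libraries (range 0.785 to 0.861) and 0.359 in control libraries (0.281 to 0.438). Itgal stood to Itgb2 at 0.596 in EV-treated libraries (0.563 to 0.659) and 0.0505 in control libraries (0.0328 to 0.0599). The alpha chain transcripts thus gained on the common beta chain in both cases without overlap of the groups. Itgam stood to Itgal at 1.39 in EV-treated libraries (1.31 to 1.47), against 7.32 in control libraries (6.07 to 8.57). Over the exons of Itgam alone, the ratio to Itgb2 was 0.992 to 1.09 in EV-treated and 0.354 to 0.552 in control libraries, and that to Itgal 1.65 to 1.86 in EV-treated and 7.67 to 10.8 in control libraries.

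The other alpha chains that pair with Itgb2 are encoded by Itgax (CD11c) and Itgad (CD11d), and both fell. Itgax had 243 ± 43.3 CPM in EV-treated and 935 ± 133 CPM in control libraries (SD, n = 3 each; log2 fold change -1.95, SE 0.17, edgeR adjusted p = 5.26e-06). Itgad, in an entry joined with Gm17831, had a log2 fold change of -1.93 (SE 0.15). Summed per kilobase, the 4 alpha partners came to 303 ± 21.8 counts per kilobase scaled as CPM in EV-treated and 365 ± 55.8 in control libraries, and the groups overlapped, whereas Itgb2 itself had 177 ± 16.8 in EV-treated and 403 ± 51.7 in control libraries (SD, n = 3 each). The make-up of the alpha sum differed: Itgam held 48.0% of it in EV-treated and 39.0% in control libraries, Itgal 34.7% in EV-treated and 5.44% in control libraries, and Itgax 16.6% in EV-treated and 53.4% in control libraries. Over the exons of Itgam alone, without the 1353 bases of its joined entry that belong to other gene models, Itgam held 53.8% of the sum in EV-treated and 44.7% in control libraries, and Itgax 14.8% in EV-treated and 48.5% in control libraries. Itgam was then the highest of the 4 in each EV-treated library, while in control C Itgam and Itgax were level, at 190.5 and 190.4. This summing was chosen after the values were seen, and transcript shares say nothing of how many receptors of each kind reached the surface.

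**Figure D2:**
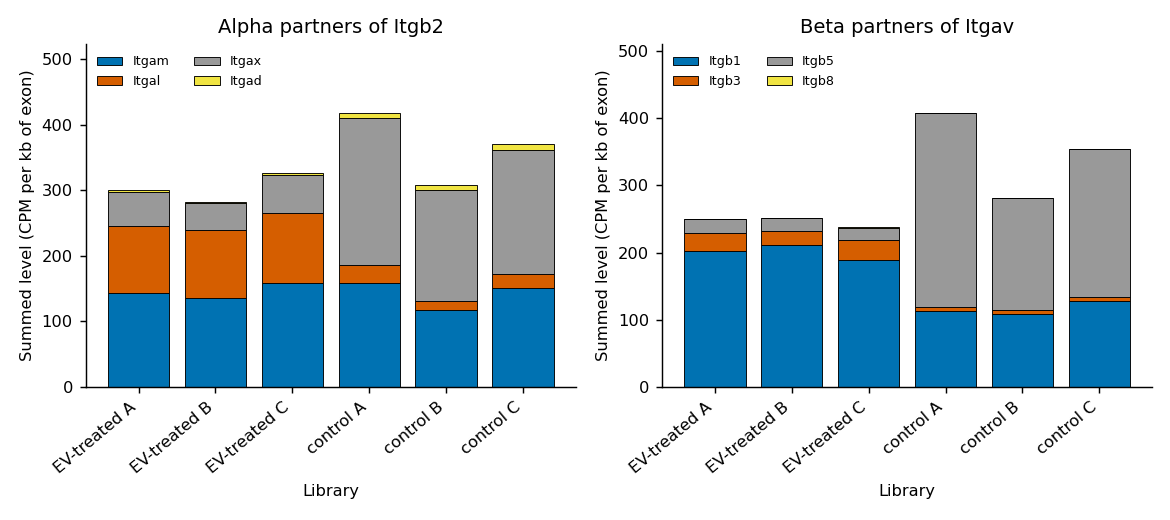
Stacked levels per library, in CPM per kilobase of exon, of the alpha partner transcripts of Itgb2 (left) and the beta partner transcripts of Itgav (right), with EV-treated libraries left of control libraries in each panel. The right panel includes Itgb1. The Itgal part is the larger in EV-treated libraries, and the Itgax and Itgb5 parts are the larger in control libraries.

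Icam1 (ENSMUSG00000037405, chromosome 9, 21015985 to 21028817, plus strand) encodes ICAM-1, the immunoglobulin-type ligand of LFA-1 and CR3, which inflammatory cytokines induce in many cell types. It had 81.1, 83.0 and 73.4 CPM in EV-treated A, B and C, against 54.5, 51.4 and 53.7 CPM in control A, B and C. The groups were apart, but the rise was the smallest of the 5, at 1.49-fold (log2 fold change 0.57, SE 0.096, edgeR adjusted p = 0.000487). It did not pass with library totals alone (0.21, adjusted p = 0.0736). The promoter of Icam1 from RefSeq (GRCm38.p6, chr9:21015690-21015989, plus strand) is printed because the human gene is known to be induced through an NF-kB site close to its start, and capitals mark the letters GGAAATTCC, searched on both strands.

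Icam1 promoter: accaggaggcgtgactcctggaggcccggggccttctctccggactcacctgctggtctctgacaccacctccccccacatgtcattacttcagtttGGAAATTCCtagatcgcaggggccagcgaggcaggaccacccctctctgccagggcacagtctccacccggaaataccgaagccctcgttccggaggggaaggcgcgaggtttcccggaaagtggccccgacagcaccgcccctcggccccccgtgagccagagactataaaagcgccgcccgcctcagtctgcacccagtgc

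The match begins 153 bases before the RefSeq start. The letters searched were those of the Icam1 promoter itself, so a match there was fixed in advance. No looser NF-kB pattern was searched. GGAAATTCC occurs in 0.317% of 32851 promoters of the same length, a share that lends the match in Icam1 no weight. The match is one of letters only, and no binding was measured here.

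The ratio of Icam1 to Itgb2 transcripts per kilobase was 0.104 in EV-treated libraries (0.0885 to 0.121) and 0.0306 in control libraries (0.0281 to 0.0357), without overlap (exact permutation p = 0.1, the smallest possible). Of 8 further tested genes for immunoglobulin-type ligands, 3 rose, 2 fell and 3 did not pass. The share that passed was 62.5%, beside 66.5% of all entries. The median log2 fold change of the 8 was 0.50, beside -0.02 for all entries. This median has no fixed size or sign: it was 0.13 with library totals alone, 0.047 with the single bin of most counts, -0.20 with the Y-linked to Xist covariate, 0.25 without EV-treated A, 0.28 without control A and 0.29 without control B. Vcam1, the ligand of the Itga4 integrins, had 3.85 ± 0.733 CPM in EV-treated and 0.0927 ± 0.0555 CPM in control libraries (SD, n = 3 each; log2 fold change 5.29, SE 0.37, edgeR adjusted p = 1.37e-06). F11r, which encodes a junctional ligand of LFA-1, had a log2 fold change of 0.52 (SE 0.17, edgeR adjusted p = 0.0214), a call that ended when any of 4 libraries was left out, with adjusted p of 0.0669 (EV-treated A left out), 0.0698 (EV-treated B), 0.0833 (control B) and 0.0755 (control C).

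Itgav and Itgb3, which together form a vitronectin receptor, both rose, while Itgb5, another beta partner of Itgav, fell. Itgav (ENSMUSG00000027087, chromosome 2, 83724397 to 83806916, plus strand), the alpha chain shared by receptors for vitronectin, fibronectin and latent TGF-beta, had 813, 679 and 1070.5 CPM in EV-treated A, B and C, against 241, 173 and 305 CPM in control A, B and C. Every EV-treated library was above every control library, by 3.56-fold on average (log2 fold change 1.83, SE 0.23, edgeR adjusted p = 7.20e-05). With the Y-linked to Xist ratio as a covariate the log2 fold change of Itgav was 1.13 (adjusted p = 0.0354).

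Itgb3 (ENSMUSG00000020689, chromosome 11, 104608000 to 104670476, plus strand), the beta3 chain, had 159, 125 and 173 CPM in EV-treated A, B and C, against 32.9, 33.9 and 35.2 CPM in control A, B and C. The control libraries agreed closely with each other, and the EV-treated libraries were all higher. The log2 fold change was 2.16 (SE 0.13, edgeR adjusted p = 5.83e-07). Platelets and their precursors carry the beta3 chain too, and 7 of their markers summed to 27.1 to 29.6 CPM in EV-treated and 8.76 to 11.3 CPM in control libraries, most of it Pf4, with Ppbp, Gp9 and Gp6 among those under 1 CPM in all libraries. The part of such cells in the level of Itgb3 was not tested.

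The ratio of Itgav to Itgb3 per kilobase was 3.06 in EV-treated libraries (2.80 to 3.39) and 3.86 in control libraries (2.80 to 4.77), and the groups overlapped (log2 difference -0.30, exact permutation p = 0.4). The size of this ratio depends on the length used. Over coding bins alone, Itgav came to 186 CPM per kilobase and Itgb3 to 26.7 in EV-treated libraries, and to 53.6 and 5.86 in control libraries. Of the other beta partners of Itgav, Itgb5 fell: it had 64.2 ± 3.75 CPM in EV-treated and 759 ± 206 CPM in control libraries (SD, n = 3 each; log2 fold change -3.56, SE 0.20, edgeR adjusted p = 3.15e-07). Itgb8, whose product with the alpha v chain activates latent TGF-beta, had 7.99 ± 1.47 CPM in EV-treated and 0.179 ± 0.203 CPM in control libraries (log2 fold change 5.36, SE 0.57). Itgb1 was left out of a sum of beta partners, as it has several alpha partners. The other beta partners summed to 45.7 ± 4.48 CPM per kilobase in EV-treated and 231 ± 61.3 in control libraries (SD, n = 3 each). Itgb3 held 56.3% of this sum in EV-treated and 2.62% in control libraries, and Itgb5 held 42.1% in EV-treated and 97.4% in control libraries. The share of Itgb3 was thus taken of a sum that fell with Itgb5. With Itgb1 in the sum, Itgb3 held 10.5% of it in EV-treated and 1.70% in control libraries. These sums and shares, too, were chosen after the values were seen.

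Itgb1 (ENSMUSG00000025809, chromosome 8, 128685654 to 128733200, plus strand), the beta1 chain of most matrix receptors, had 826, 862 and 774 CPM in EV-treated A, B and C, against 463, 442 and 521 CPM in control A, B and C. It was higher in all EV-treated libraries (log2 fold change 0.79, SE 0.12, edgeR adjusted p = 0.000226). With the Y-linked to Xist covariate its log2 fold change was 0.61 and the adjusted p 0.0501.

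Of its alpha partners, Itga6 fell and Itga4 and Itga5 did not pass the test. Itga6 (ENSMUSG00000027111, chromosome 2, 71745616 to 71858416, plus strand), the alpha chain of laminin receptors, had 44.8, 39.0 and 50.7 CPM in EV-treated A, B and C, against 281, 179 and 258 CPM in control A, B and C. The groups were far apart, and the level in EV-treated libraries was lower by 5.34-fold (log2 fold change -2.42, SE 0.18, edgeR adjusted p = 2.18e-06). Neural stem cells and endothelial cells also carry this chain. Summed markers of neural stem and progenitor cells were 6.18 to 7.46 CPM in EV-treated and 56.1 to 98.2 CPM in control libraries. Nes made up most of the control sums, at 1.88 to 3.19 CPM in EV-treated and 45.7 to 82.1 CPM in control libraries, and Egfr was higher in EV-treated libraries, at 2.63 to 3.63 CPM, against 0.486 to 0.575 CPM in control libraries, with Sox2, Pax6 and Dcx among those under 1 CPM in all libraries. Summed endothelial markers were 47.0 to 51.3 CPM in EV-treated and 78.7 to 177 CPM in control libraries, with Cldn5, Tek and Tie1 of the 7 under 1 CPM. Flt1 made up most of the control sums, at 13.3 to 18.8 CPM in EV-treated and 71.1 to 170 CPM in control libraries. Kdr, Egfl7 and Cdh5 went the other way, each higher in every EV-treated library than in any control library. The part of such cells in the fall of Itga6 was not tested.

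Itga4 (ENSMUSG00000027009, chromosome 2, 79255426 to 79333123, plus strand), the alpha chain of the VCAM-1 receptor VLA-4, had 23.1, 21.1 and 27.1 CPM in EV-treated A, B and C, against 30.8, 21.7 and 43.1 CPM in control A, B and C, with overlap. Its log2 fold change was -0.42 (SE 0.22, edgeR adjusted p = 0.113), and -0.66 (adjusted p = 0.00687) without control B, and it passed under 6 of 19 alternatives. The last bin of Itga4 overlaps the antisense gene Cerkl, and without that bin the log2 fold change was -0.22 (adjusted p = 0.408). Itga5 (ENSMUSG00000000555, chromosome 15, 103344286 to 103366763, minus strand), the alpha chain of the fibronectin receptor, had 766, 628 and 812 CPM in EV-treated A, B and C, against 736, 441 and 522 CPM in control A, B and C. Only control A reached into the EV-treated range. Its log2 fold change was 0.38 (SE 0.19, edgeR adjusted p = 0.107), and 0.59 (adjusted p = 0.0115) without control A.

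Set against Itgb1 per kilobase, the alpha chains shifted unequally. Itga6 stood at 0.0249 of Itgb1 in EV-treated and 0.227 in control libraries, and Itga4 at 0.00851 in EV-treated and 0.0193 in control libraries. Itgav stood at 0.400 in EV-treated and 0.190 in control libraries. These 3 ratios did not overlap between groups (exact permutation p = 0.1 each, the smallest possible). Itga5 stood at 0.828 in EV-treated (0.670 to 0.963) and 1.10 in control libraries (0.918 to 1.46), with overlap (exact permutation p = 0.3). The beta chain ratio of Itgb3 to Itgb1 was 0.129 in EV-treated and 0.0497 in control libraries. The sizes of these ratios depend on the length used. Over coding bins alone, Itgav came to 186 CPM per kilobase and Itgb1 to 241 in EV-treated libraries, and to 53.6 and 137 in control libraries.

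**Figure D3:**
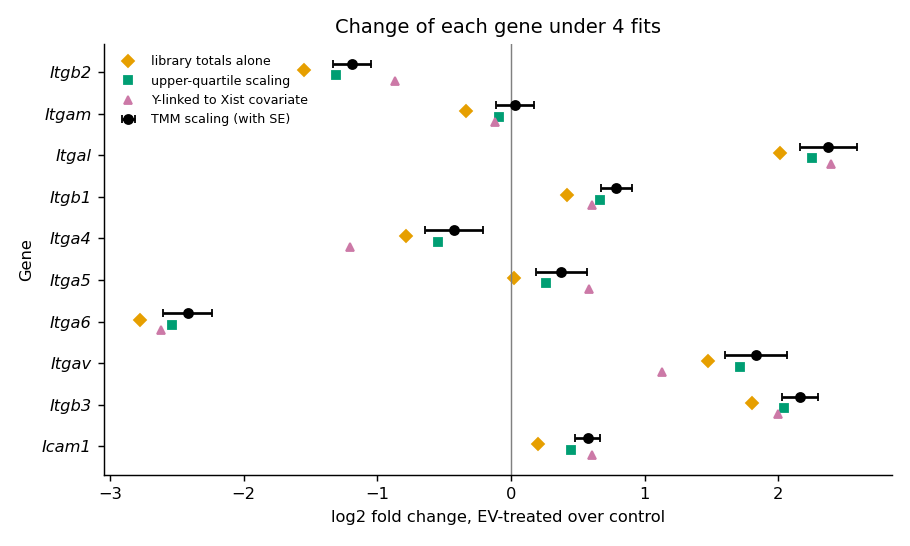
log2 fold change (EV-treated over control) of the 10 genes under TMM scaling (black, bars are 1 SE), library totals alone (orange), upper-quartile scaling (green) and TMM with the Y-linked to Xist covariate (pink). Itgal, Itgav, Itgb3, Itgb1 and Icam1 are above 0 and Itga6, Itgb2 and Itga4 below 0 in all 4 fits, and Itgam changes sign.

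Levels of different genes can be ordered only per length. In CPM per kilobase of exon, the EV-treated libraries had the order Itgb1 (201), Itgb2 (177), Itga5 (166), Itgam (145), Itgal (105), Itgav (79.5), Itgb3 (25.8), Icam1 (18.2), Itga6 (4.97) and Itga4 (1.70). Ranges of neighbours overlapped between Itgb1 and Itgb2, between Itgb2 and Itga5 and between Itga5 and Itgam. In control libraries the order was Itgb2 (403), Itgam (143), Itga5 (127), Itgb1 (116), Itga6 (26.5), Itgav (22.3), Itgal (20.2), Icam1 (12.2), Itgb3 (5.76) and Itga4 (2.28). Itgam, Itga5 and Itgb1 overlapped there in turn, as did Itga6, Itgav and Itgal. Itgb2 was thus far above the rest in control libraries, and 4 genes lay close together at the top in EV-treated libraries. The place of Itgam depends on the length used, since its joined entry holds 1353 bases that are not its own exons: over its own 5024 bases it came to 184 in EV-treated and 180.0 in control libraries, which puts it above Itga5 and Itgb2 in the EV-treated order, with overlapping ranges. Over coding bins alone, Itga6 came to 8.97 in EV-treated and 47.8 in control libraries, and Icam1 to 31.1 in EV-treated and 20.8 in control libraries. Itgav came to 186 in EV-treated and 53.6 in control libraries, and Itga5 to 168 in EV-treated and 130 in control libraries. By these means Itgav lay above Itga5 in the EV-treated order.

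Along the genes, the change was spread over the exons. Among bins with at least 100 counts over the 6 libraries, all 38 of Itgal, all 16 of Itgb3, 42 of 43 of Itgav and 21 of 22 of Itgb1 were higher in every EV-treated library than in any control library, and all 33 of Itga6 and 23 of 24 of Itgb2 were lower. Bins of a gene may share spliced reads and are not independent. The sums of these genes already did not overlap between groups, as in 71.3% of all entries. The bin counts therefore describe where the change lay and are no further support for it. The share over all bins was not computed. In Itgam, 44 of 45 bins overlapped between groups, with a median log2 ratio of 0.02.

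**Figure D4:**
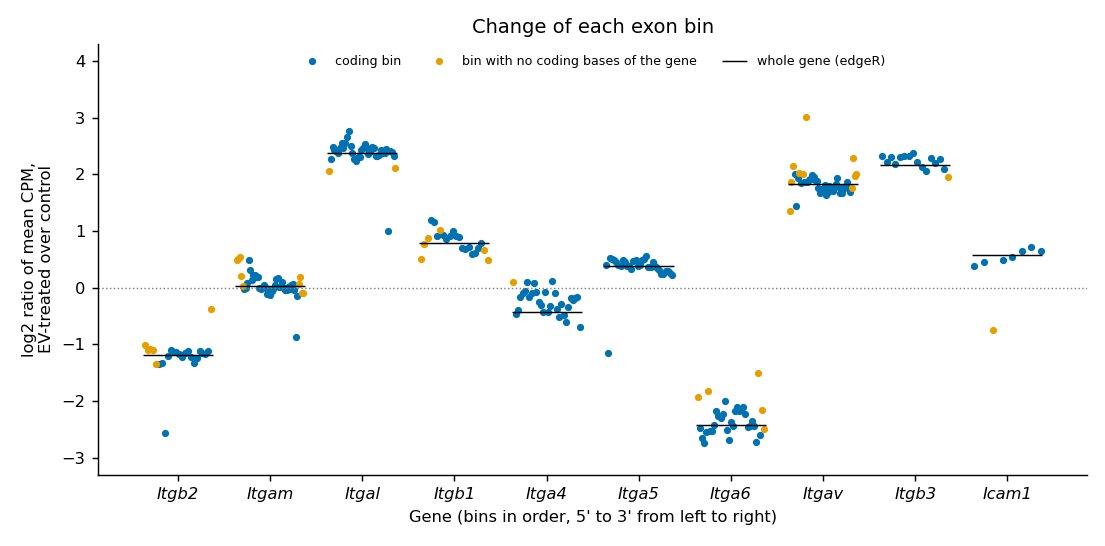
log2 ratio of mean CPM (EV-treated over control) of each exon bin with at least 100 counts, in order from the 5' to the 3' end of each gene, with coding bins in blue and bins without coding bases of the gene in orange. The black line is the change of the whole gene, and most bins lie near it, with single bins of Itgal, Itgb2, Itgam, Itga5, Itgav and Icam1 away from it.

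Usage of bins within a gene differed for Icam1 (edgeR's diffSpliceDGE, gene F test, adjusted p = 0.00142) and Itgb1 (adjusted p = 0.0391), where 29.7% of 12265 genes passed. In Icam1 the exception was a bin of 1825 bases that is an exon of a noncoding transcript (chromosome 9, 21019180 to 21021004), with 17, 31 and 44 counts in EV-treated A, B and C, against 45, 46 and 105 counts in control A, B and C. Relative to the rest of the gene it was lower (log2 -1.33, adjusted p = 0.00187), and the other 7 bins were higher in every EV-treated library. The Icam1 gene call ended without EV-treated A (adjusted p = 0.0591) and with a stricter filter on bins (0.470). No single bin of Itgb1 passed, and its call ended when any library other than control C was left out, with adjusted p of 0.147 to 0.509. A bin of Itgal of 1052 bases, coding in 1 transcript alone, gained less than the gene (log2 -1.39, adjusted p = 0.00721), with 208, 151 and 151 counts in EV-treated and 99, 60 and 164 counts in control libraries. By the Simes p per gene, which weighs single bins, Itgal (adjusted p = 0.0363), Itgb2 (0.00168) and Icam1 (0.00235) passed and Itgb1 did not (0.689). In Itgb2 a 64-base bin of the 3' untranslated region fell less than the gene (log2 0.82, adjusted p = 0.000518). Other bins far from their gene were a 60-base bin of Itgb2 (log2 ratio -2.56), a 60-base bin of Itga5 (-1.15), a 244-base bin of Itgam (-0.87) and a noncoding bin of 877 bases in Itgav (3.01), and none of these passed the usage test.

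Alternative exons of the cytoplasmic tails could be read from the bins of Itga6 and Itgb1. The exon of 130 bases that gives the alpha6A tail (GRCm38 chr2:71853534-71853663, plus strand), and that of 81 bases that gives the muscle form beta1D (chr8:128726983-128727063, plus strand), are printed to show which counts are meant, with no part in capitals.

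Itga6 exon of the alpha6A tail: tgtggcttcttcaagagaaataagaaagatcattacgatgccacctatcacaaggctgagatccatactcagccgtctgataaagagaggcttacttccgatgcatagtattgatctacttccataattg
Itgb1 exon of the beta1D tail: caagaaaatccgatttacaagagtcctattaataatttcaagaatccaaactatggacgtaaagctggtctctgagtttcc

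The alpha6A exon had 113, 82 and 137 counts in EV-treated A, B and C, against 936, 551 and 1209 counts in control A, B and C. Its ratio to an upstream coding exon of 99 bases was 0.801, 0.590 and 0.986 in EV-treated and 1.001, 0.890 and 0.970 in control libraries, and the groups overlapped. Its usage within the gene did not pass the test (adjusted p = 0.929). The beta1D exon had 4, 11 and 22 counts in EV-treated and 1, 2 and 14 counts in control libraries, a trace beside the level of Itgb1.

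Of 12 further integrin alpha genes, 7 rose, 4 fell and 1 did not pass, where 66.5% of all entries passed, with a median log2 fold change of 1.59. The median was 0.17 with the single bin of most counts (4 rose and 4 fell of the 8 tested so) and 0.49 with the Y-linked to Xist covariate (3 rose and 4 fell). Of the 7 that rose, 5 averaged under 1 CPM in both groups, namely Itga1, Itga2, Itga2b, Itga11 and Itgae. Itga9, whose product pairs with beta1 and binds tenascin and VCAM-1, had 76.8 ± 5.28 CPM in EV-treated and 19.1 ± 3.55 CPM in control libraries (SD, n = 3 each; log2 fold change 2.01, SE 0.14, edgeR adjusted p = 1.38e-06). Of 4 further beta genes, 2 rose, 1 fell and 1 did not pass, with a median of 1.04 (1 and 1 with the covariate).

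Of 18 soluble and matrix ligands, 7 rose, 6 fell and 5 did not pass, so 72.2% passed, beside 66.5% of all entries. The median log2 fold change was 0.33 (-0.03 with library totals alone, which lowered the median of all entries to -0.38). The median was 0.15 without EV-treated C, 0.12 without control A, 0.59 without control C and -0.46 with the Y-linked to Xist covariate, under which 3 rose and 6 fell. C3, the complement protein whose fragment iC3b binds CR3, had 1488 ± 220.4 CPM in EV-treated and 87.6 ± 11.5 CPM in control libraries (SD, n = 3 each; log2 fold change 4.09, SE 0.17, edgeR adjusted p = 5.17e-08). Thbs1, an alpha v ligand, rose by 3.27 on the log2 scale, while Fn1, which encodes fibronectin, fell by 2.38 and Spp1, in an entry joined with Gm42793, by 2.03. Spp1 encodes osteopontin, an alpha v and alpha4 ligand. The anchors of latent TGF-beta were split, with Lrrc32 at 3.10 (SE 0.19) and Nrros, the anchor of microglia, at -2.54 (SE 0.14).

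Genes that switch integrins on, link them to the cell or move them within it also went in both directions. The share that passed was 72.7% for activation, 78% for adhesion complexes and signalling and 83.3% for trafficking, beside 66.5% of all entries. Since 33.0% of all entries rose and 33.5% fell, such a division is not particular to these genes. Of 22 for activation, 7 rose, 9 fell and 6 did not pass (median -0.0044, and -0.059 to 0.062 without single libraries; 5 and 10 with library totals alone). Fermt2, a kindlin, rose by 3.94 (SE 0.27) and reached 69.1 ± 6.08 CPM in EV-treated, against 4.47 ± 1.97 CPM in control libraries, and Cytip, which holds the LFA-1 activator cytohesin in the cytosol, rose by 4.05 (SE 0.36). Rassf5, which encodes the LFA-1 activator RAPL, fell by 2.94 (SE 0.14). Of 41 for adhesion complexes and signalling, 15 rose, 17 fell and 9 did not pass (median -0.07, and -0.13 to -0.02 without single libraries, from control A to control C; 11 and 22 with library totals alone). Bcar1, which encodes the scaffold p130Cas, rose by 7.60 (SE 0.22), the kinase genes Src and Syk rose by 3.44 and 2.26, and the Src family genes Fgr and Fyn fell by 5.18 and 2.30. Of 12 for integrin trafficking, 6 rose, 4 fell and 2 did not pass (median 0.32; 4 and 5 with library totals alone, median -0.05), with Rab11fip1, a recycling adaptor, at 5.60 (SE 0.13) and Arf6, a recycling GTPase, at -0.91 (SE 0.096).

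Genes with a course most like a member's across the 6 libraries were found by the root mean square difference of centred log2 CPM among 9466 entries. Closest to Icam1 were Rhot1 (0.0361), Cybc1 (0.0368) and Calu (0.0368), and closest to Itgb2 were Gle1 (0.0545), L3mbtl2 (0.0637) and Taz (0.0800). All 6 are single-gene entries, and the measure says only that their levels moved alike in these libraries.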

How the data were processed

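Cultured microglia were sequenced as polyadenylated RNA in 3 EV-treated and 3 control libraries. Trimmomatic 0.36, STAR, Subread, DESeq2 and the build GRCm38 are listed in the submitters' processing notes; the annotation, the strand setting and the aligner's settings are not given in the sources used, so reads of overlapping antisense genes cannot be told apart. The deposited values are raw counts per exon bin, per the file headers. A read that spans bins may be counted in each.

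Each gene entry's bins were added up. Entries of low counts were removed (filterByExpr), libraries were scaled by TMM (factors 0.855 to 0.921 in EV-treated and 1.09 to 1.16 in control libraries), and groups were compared by edgeR 4.0.16 (glmQLFit, glmQLFTest, no covariate) in R 4.3.3, 2-sided, with Benjamini-Hochberg adjustment over 16605 entries and a threshold of 0.05. SEs were obtained from the fold change and F. The common biological coefficient of variation was 0.174. CPM use TMM library sizes. Levels per kilobase divide by the summed bin length. Bin usage was tested with diffSpliceDGE, and its coefficients were set to log2. Both tests were checked on simulated data. In the gene simulation few genes changed, with rises and falls balanced, and in the bin simulation bins were drawn independently. Scaling under changes as widespread as those seen here, and bins that share reads, were therefore not checked. Bins were annotated from GENCODE vM21 on GRCm38. RefSeq promoters of 250 bases before to 50 after the start were found for 6 of the 10 genes. No pair of a group's libraries was a repeat by its counts (lowest chi-square per degree of freedom 82.7).

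The members, lists and markers were chosen with earlier results of these data known. Genes named from a list are up to 3 rising and 3 falling with the smallest p among those that passed with a mean log2 CPM of at least 1; Vcam1, Itga1, Itga2, Itga2b, Itga11 and Itgae were named after their values were seen, and a few items are not reported here. DESeq2 1.42.0, limma-voom (limma 3.58.1), other scalings and filters, the replicate block, the single bin with the most counts, the sex-linked covariate and each library left out were alternatives; coding bins alone, bins without exons of other genes and Itgam over its own exons were added after seeing the data. Figures were drawn with matplotlib 3.10.9.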

Additional observations from a re-analysis of the deposited data

How the results depend on the processing

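Itgal, Itgav, Itgb3, Itga6 and Itgb2 kept their direction and passed at 0.05 under all 19 alternatives run for each. Itgam, which never passed, turned negative with upper-quartile scaling (-0.092), library totals alone (-0.33), no filter (-0.046) and the Y-linked to Xist covariate (-0.12), and without single libraries it ranged from -0.12 to 0.10. Itga4 passed with library totals alone (-0.79), no filter (-0.50), the replicate block (-0.38), the single bin with the most counts (-0.62) and the covariate (-1.20), and without single libraries it ranged from -0.66 to -0.16. That single bin is the last bin of Itga4, which overlaps the antisense gene Cerkl and without which Itga4 did not pass. Itga5 passed with the replicate block (0.40), and without single libraries it ranged from 0.20 to 0.59. Icam1 did not pass with library totals alone (0.21), nor Itgb1 with the covariate (0.61). With the covariate 7271 of all entries passed (3599 higher, 3672 lower). Bin usage differed in 2 genes, against 1 with the stricter filter, 1 with the replicate block and 0 to 3 without single libraries; by the Simes p, Itgal, Itgb2 and Icam1 passed in place of Icam1 and Itgb1. The causes were not tested. Libraries of the same letter correlated in their deviations from the group means at 0.0350, 0.167 and 0.210, so the letters were not taken to pair them. None of the 10 ratios between genes reversed in 82 recomputed values. Where the groups of a ratio did not overlap, leaving out a single library could not reverse it, so those values are no test. With library totals alone 34.0% of all calls were rises, against 49.7% with TMM. With 3 libraries per group, exact tests cannot go below 0.1.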
